A study of Mus musculus with 21 samples.

Results

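The 50 genes described here code for proteins that build ribosomes. They were taken by symbol from a list of subunits of RNA polymerase I, proteins of small nucleolar ribonucleoproteins (snoRNPs), and processing factors of the small and the large ribosomal subunit. All 50 were found among the 22483 genes of the deposited tables, and all 50 had enough counts to be among the 12360 genes tested. By role they fell into 4 polymerase subunits, 4 box C/D snoRNP proteins, 5 box H/ACA snoRNP proteins (among them their chaperone Nolc1), 5 nucleolar proteins that act in several steps, 17 small-subunit factors and 15 large-subunit factors.

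The study followed MEDEP cells, erythroid progenitors derived from mouse embryonic stem cells and grown here as a single line (BRC5), through differentiation in culture. Every culture began as exponentially growing cells in serum-containing medium supplied with dexamethasone, a glucocorticoid, and with SCF (stem cell factor, which signals through Kit). The 0 h group was taken in that medium. The groups at 12, 24, 36, 48 and 72 h were taken after both had been removed in favour of 4 U/ml Epo (erythropoietin, which drives red cell production). The seventh group received the same Epo medium plus SA (succinyl acetone, which blocks heme synthesis) for 12 h, at a dose that the labels do not give. Each of the 7 groups held 3 libraries of polyadenylated RNA, described as biological replicates, and p-values measure the spread between them.

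Ribosomes are assembled in the nucleolus. RNA polymerase I transcribes a long precursor RNA, which snoRNPs modify at positions chosen by their guide RNAs. Large sets of processing factors fold and cut this RNA and load it with ribosomal proteins to form the small and the large subunit. The pathway consumes much of the biosynthetic effort of a growing cell, is widely activated by the transcription factor MYC, and is run down as erythroblasts mature and lose their nucleoli.

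The start sites of these genes are shown because MYC and its partners bind the E-box CACGTG, and because ETS-family factors bind ACTTCCGG. A RefSeq window of 300 bases (GRCm38.p6, 250 bases before to 50 after the start) was found for 45 of the 50 genes. The source held 32851 windows for 27025 genes, and a gene counted once if any of its windows held the motif. CACGTG, searched on both strands, was found for 9 of the 45 genes (20.0%), against 11.3% of the 9552 tested genes with a window and 8.09% of all 27025. ACTTCCGG or its reverse complement was in 13 (28.9%), against 9.21% and 4.31%. The longer palindrome bound by BANP, a factor of CpG-rich starts, was in 0 of 45, against 1.13% and 0.525%. A match describes the letters only. Nop2 (an rRNA methyltransferase), Wdr43, Tsr1 and Utp4 (small-subunit factors) are printed because their windows hold CACGTG and they fell most at 12 h among those that do; Polr1b, of RNA polymerase I, is printed as a gene with a larger fall and neither motif. Capitals mark CACGTG and ACTTCCGG on either strand.
Nop2, chr6:125131633-125131932, plus strand: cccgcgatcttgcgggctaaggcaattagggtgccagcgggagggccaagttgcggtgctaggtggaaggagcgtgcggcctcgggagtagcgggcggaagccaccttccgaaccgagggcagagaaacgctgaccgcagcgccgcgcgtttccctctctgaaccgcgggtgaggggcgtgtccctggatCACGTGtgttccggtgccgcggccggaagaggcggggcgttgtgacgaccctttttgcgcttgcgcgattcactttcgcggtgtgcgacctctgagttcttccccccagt
Wdr43, chr17:71615965-71616264, plus strand: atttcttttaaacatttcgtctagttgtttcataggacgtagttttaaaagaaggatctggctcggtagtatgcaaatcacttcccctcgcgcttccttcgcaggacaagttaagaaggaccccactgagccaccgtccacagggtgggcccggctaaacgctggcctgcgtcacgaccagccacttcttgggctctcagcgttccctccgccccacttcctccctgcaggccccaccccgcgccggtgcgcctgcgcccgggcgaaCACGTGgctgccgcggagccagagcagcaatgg
Tsr1, chr11:74897830-74898129, plus strand: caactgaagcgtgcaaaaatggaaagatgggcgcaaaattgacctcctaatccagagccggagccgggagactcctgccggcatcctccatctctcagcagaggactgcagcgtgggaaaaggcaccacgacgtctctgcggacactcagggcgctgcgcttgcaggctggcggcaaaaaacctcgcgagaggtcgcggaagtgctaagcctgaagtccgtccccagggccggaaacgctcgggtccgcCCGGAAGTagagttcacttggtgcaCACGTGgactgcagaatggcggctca
Utp4, chr8:106893390-106893689, plus strand: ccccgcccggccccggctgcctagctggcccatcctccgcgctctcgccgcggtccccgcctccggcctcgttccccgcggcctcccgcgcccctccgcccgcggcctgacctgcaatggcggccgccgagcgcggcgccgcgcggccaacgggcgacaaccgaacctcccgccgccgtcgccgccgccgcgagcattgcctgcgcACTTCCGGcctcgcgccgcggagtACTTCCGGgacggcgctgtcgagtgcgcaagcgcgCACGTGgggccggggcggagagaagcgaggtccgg
Polr1b, chr2:129100746-129101045, plus strand: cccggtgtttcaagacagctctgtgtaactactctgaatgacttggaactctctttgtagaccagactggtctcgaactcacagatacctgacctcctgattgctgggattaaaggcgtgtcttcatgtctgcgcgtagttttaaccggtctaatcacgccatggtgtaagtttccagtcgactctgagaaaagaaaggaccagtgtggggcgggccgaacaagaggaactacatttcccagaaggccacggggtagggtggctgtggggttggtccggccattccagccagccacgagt
In Nop2 the E-box lies 60 bases before the start, in the other 3 just after it. Utp4 and Tsr1 hold the ETS motif as well, Utp4 in 2 copies, and Polr1b shows no capitals. At 12 h the median log2 change was -1.09 (range -1.36 to -0.35) over the 9 genes with CACGTG and -1.04 (range -2.01 to 0.31) over the 36 without it. At 36 h against 24 h the medians were -1.72 and -1.43, and at 72 h against 48 h they were 0.63 and 0.38.

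The libraries held 16.7 to 39.3 M estimated counts, and among the 50 genes the lowest count in any library was 12 (Gar1 at 48 h) and the highest 87739. All 10 erythroid markers were detected, and their summed level went from between 2060 and 2170 normalized counts-per-million (CPM) at 0 h to between 49100 and 57000 CPM at 36 h and between 55300 and 60400 CPM at 48 h. At 72 h it was between 33900 and 53200 CPM, below every 48 h library. Marker lists of macrophages, mast cells, neutrophils, embryonic stem cells and endothelium each summed to at most 15.5 CPM in every library, with Mcpt8, S100a8, S100a9 and Sox2 at 0 in all. The list for megakaryocytes, whose genes erythroid cells partly share, rose from 17.4 to 21.9 CPM at 0 h to between 1530 and 1660 CPM at 48 h and was between 600.0 and 993 CPM at 72 h. In the same step the neutrophil list went from at most 0.48 CPM to between 1.75 and 4.43 CPM and the endothelium list from at most 0.313 CPM to between 0.868 and 1.39 CPM. The part of these marker changes in the last-day results was not tested. At 36 h, replicate 1 held 41.6 CPM of stroma markers, against 0.193 and 0.334 CPM in replicates 2 and 3; all 50 genes were also called lower at 36 h than at 24 h without it. At 72 h, replicate 1 was lowest in erythroid markers, with 33900 CPM against 46900 and 53200 CPM, and in globin, with 31.7% of counts against 36.9 and 37.0%. Over the counts of all genes, replicate 3 lay farthest off at 72 h: chi-square per gene was 221 and 280 from replicates 1 and 2, against 88.4 between those. At 48 h replicate 3 also lay apart, at 156 and 139 against 23.6. In the last day 29 of the 50 genes rose and 3 fell with all libraries, where 24.7% of all genes tested were called higher and 34.5% lower. Without replicate 1 of 72 h these counts were 29 and 2, without replicate 3 of 72 h 29 and 2, and without replicate 3 of 48 h 27 and 3. For some single genes below, a call that changes without a library is given with that value.

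Levels in CPM below are scaled by the trimmed mean of M-values (TMM), so that a change is relative to the middle of all genes tested and not an amount per cell. In bulk RNA fewer cells that express a gene and less RNA per cell cannot be told apart. The choice of scale bears on late times, when globin transcripts took 22.3 to 37.0% of counts. The deposited transcripts-per-million values (TPM, per length) were read as log2(TPM + 1), over the 9525 genes with a mean of at least 1 TPM. There the median log2 change was -0.09 at 12 h, -0.32 from 12 to 24 h, -1.84 from 24 to 36 h, -0.47 from 36 to 48 h and -0.45 from 48 to 72 h. With all genes above 0 kept it was 0.00, -0.06, -0.62, -0.10 and -0.06. As plain shares of the library it was -0.06, -0.24, -1.03, -0.38 and -0.26, and on the TMM scale it lay between -0.07 and 0.00.

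Before the switch the genes spanned a wide range of levels. Per length, nucleophosmin (Npm1), an abundant nucleolar chaperone, was highest at 3031 ± 280 TPM (mean ± SD, n = 3) and made up 27.3% of the summed TPM of the 50 genes. The box C/D proteins Nop58 at 784 ± 42.7 TPM and Nop56 at 665 ± 23.2 TPM, nucleolin (Ncl) at 631 ± 31.7 TPM and the methyltransferase Fbl at 457 ± 10.4 TPM followed. The SDs of Nop56 and Ncl overlapped, so their order was not resolved. The large-subunit factors Noc3l (32.8 ± 1.32 TPM) and Urb2 (25.9 ± 0.522 TPM) were lowest.

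Summed over the 50 genes, the level fell at each time to 48 h and came back in part on the TMM scale. The sum was 8928, 9278 and 8411 CPM in the 3 libraries at 0 h, 4744, 4655 and 4414 CPM at 12 h, and 3248, 3014 and 3062 CPM at 24 h. It was 1213, 1028 and 1241 CPM at 36 h, 840, 911 and 806 CPM at 48 h, and 1289, 1362 and 1093 CPM at 72 h. Each time to 48 h lay wholly below the one before, and all 3 libraries at 72 h lay above all 3 at 48 h. As a share of estimated counts the sum went from 1.475 ± 0.0544% at 0 h to 0.0462 ± 0.00129% at 48 h and, at the last time, 0.0593 ± 0.0136% (means ± SD of 3 libraries). There the 72 h libraries, at 0.0734, 0.0583 and 0.0463%, overlapped those at 48 h, at 0.0456, 0.0476 and 0.0452%. As a share of counts without globin the 72 h libraries, at 0.107, 0.0924 and 0.0735%, lay above those at 48 h, at 0.0632, 0.0668 and 0.0611%. In TPM the sum was 95.3, 98.5 and 132 at 48 h and 142, 80.0 and 107 at 72 h, so those groups overlapped fully.

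**Figure D1:**
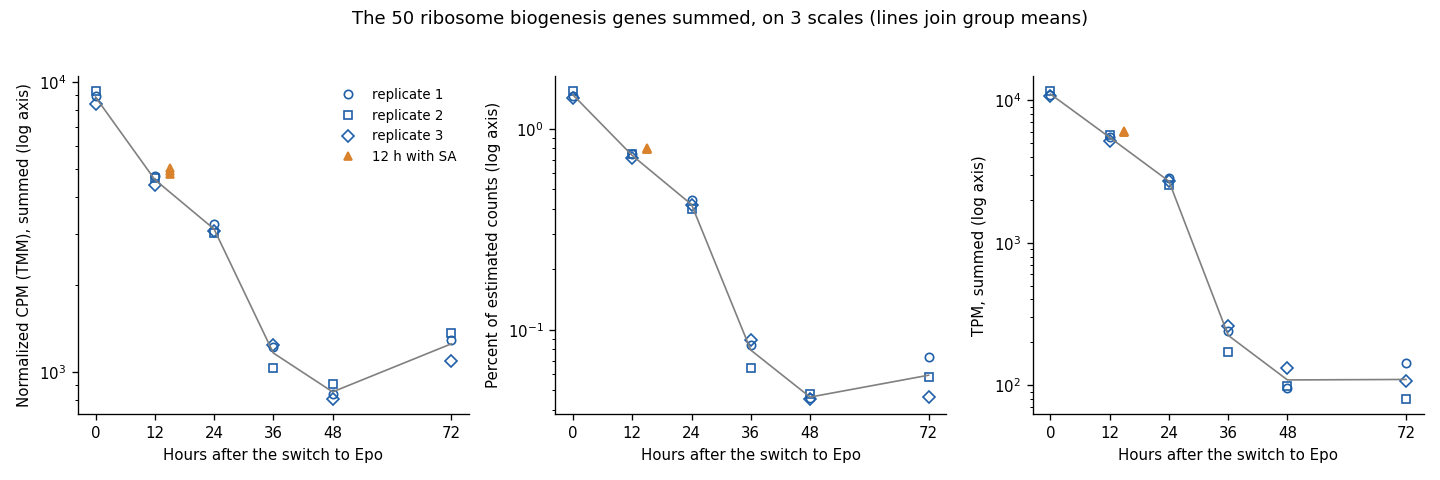
Sum of the 50 genes in each library against hours after the switch, as TMM-normalized CPM, percent of estimated counts and TPM, each on a log axis, with lines through group means. From 0 h to 36 h the 3 scales fall in the same order of times; at 72 h all 3 libraries lie above the 48 h libraries in CPM, while in TPM the sums of 48 h (95.3 to 132) and 72 h (80.0 to 142) overlap.

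In the first 12 h after the switch, 48 of the 50 genes fell, 1 rose and 1 did not pass, where 27.6% of all genes tested were called lower and 25.3% higher (edgeR quasi-likelihood test, Benjamini-Hochberg adjusted p at most 0.05, here and for each count on the TMM scale). Their median log2 change was -1.02, against -0.01 over all genes, and the median gene stood at 49.5% of its level at 0 h. From 12 to 24 h, 44 fell and none rose (median -0.66, against 0.00; 22.0% of all genes were called lower and 19.1% higher). From 24 to 36 h, all 50 fell, with a median of -1.57 against -0.03, where 39.0% of all genes were called lower. From 36 to 48 h, 29 fell and 1 rose (median -0.45, against -0.07), where 29.7% were called lower and 20.0% higher. By 48 h the median gene was at 7.39% of its 0 h level. In the last day, from 48 to 72 h, 29 rose and 3 fell, with a median of 0.51 against -0.05; 24.7% of all genes were called higher and 34.5% lower. Over the whole course, at 72 h against 0 h, 49 were lower and none higher, with a median of -3.29 against -0.13, where 46.5% were called lower and 43.3% higher.

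**Figure D2:**
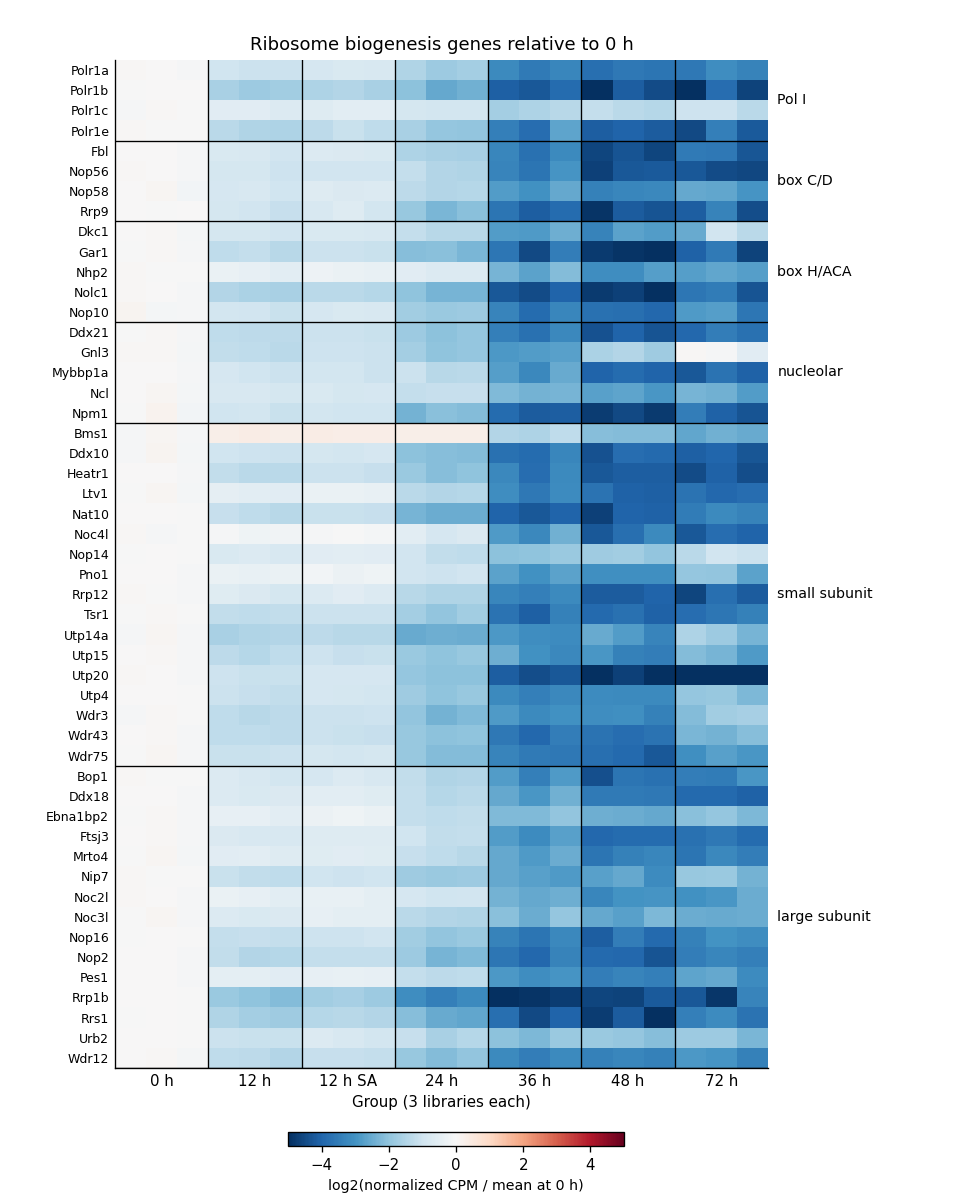
Log2 ratio of normalized CPM to the mean at 0 h for the 50 genes (grouped by role, alphabetical within a role) in the 21 libraries, with replicates 1 to 3 from left to right in each group; blue is lower, red higher, and colour saturates at 5. Nearly all genes darken step by step to 36 h or 48 h, Bms1 is the single gene above its 0 h level at 12 h and 24 h, and Gnl3 is back near its 0 h level at 72 h.

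The lowest group mean was at 48 h for 33 genes, at 72 h for 10 and at 36 h for 7 in CPM. In TPM it was at 72 h for 33, at 48 h for 16 and at 36 h for 1. The highest mean was at 0 h for 49 genes and at 12 h for Bms1 alone, in CPM.

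All 4 subunits of RNA polymerase I fell at 12 h, by a median log2 change of -1.24. Polr1b, which with Polr1a forms the catalytic core, was at 125, 129 and 129 CPM at 0 h, 41.5, 36.7 and 38.3 CPM at 12 h and 30.6, 21.6 and 24.1 CPM at 24 h. It was at 7.52, 6.69 and 8.94 CPM at 36 h, 3.89, 7.27 and 5.68 CPM at 48 h and 3.99, 9.01 and 5.21 CPM at 72 h. The groups did not overlap up to 36 h, and the last 3 times did. The change was -1.72 ± 0.17 at 12 h (log2 ± SE, n = 3 against 3, edgeR adjusted p = 4.5e-08) and 0.13 ± 0.24 from 48 to 72 h (adjusted p = 0.67). Polr1a stood at 202, 200 and 187 CPM at 0 h, 99.6, 94.1 and 94.4 CPM at 12 h and 68.6, 55.4 and 60.3 CPM at 24 h. At 36 h it was at 21.8, 16.8 and 20.6 CPM, at 48 h at 14.2, 16.7 and 15.4 CPM and at 72 h at 16.7, 22.8 and 19.6 CPM. It was the single polymerase subunit called higher at 72 h than at 48 h, by 0.35 ± 0.12 (adjusted p = 0.014), with the ranges meeting at 16.7 CPM and with -0.105 in log2(TPM + 1). That call was lost without replicate 1 of 48 h (0.28) and without replicate 2 of 72 h (0.221). Polr1c, which RNA polymerase III also uses, fell least of the 4 over the course (-1.13 ± 0.09 at 72 h against 0 h), and Polr1e changed by -3.97.

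Box C/D snoRNPs methylate the ribose of rRNA, with Fbl as the methyltransferase and Nop56 and Nop58 as scaffold proteins. Fbl was at 221, 224 and 210 CPM at 0 h, 128, 125 and 112 CPM at 12 h, and 74.7, 70.7 and 69.7 CPM at 24 h. It was at 22.5, 16.6 and 24.3 CPM at 36 h, 8.96, 11.1 and 9.12 CPM at 48 h and 18.8, 18.3 and 11.2 CPM at 72 h. Each time lay below the one before up to 48 h, and the lowest library at 72 h lay just above the highest at 48 h. From 24 to 36 h Fbl changed by -1.77 ± 0.14 (log2 ± SE, edgeR adjusted p = 8.06e-10), from 36 to 48 h by -1.11 ± 0.16 (adjusted p = 9.02e-06) and in the last day by 0.73 ± 0.16 (adjusted p = 0.000594; -0.0123 in log2(TPM + 1)). Nop56 was at 287, 277 and 262 CPM at 0 h, 149, 150 and 134 CPM at 12 h and 119, 99.2 and 97.2 CPM at 24 h. It went on to 28.2, 21.7 and 35.9 CPM at 36 h, 10.9, 14.4 and 15.0 CPM at 48 h and 14.7, 12.4 and 11.6 CPM at 72 h. Its 72 h libraries lay within the range of 48 h, with a change of -0.05 ± 0.16 (adjusted p = 0.823), and its change over the course, -4.41 ± 0.16, was the largest of the 4 box C/D genes. Rrp9, a protein of the U3 snoRNP, was at 39.3, 37.7 and 38.7 CPM at 0 h, 21.2, 20.0 and 17.2 CPM at 12 h and 10.2, 7.91 and 9.04 CPM at 24 h. It ended at 3.05, 2.21 and 2.67 CPM at 36 h, 1.28, 2.13 and 1.92 CPM at 48 h and 2.22, 3.82 and 1.80 CPM at 72 h. The last 3 times overlapped in part, and the last-day change of 0.59 ± 0.26 did not pass (edgeR adjusted p = 0.0575); it passed without replicate 2 of 48 h (0.752) and without replicate 1 (0.696) or replicate 3 (0.78) of 72 h. Nop58 rose by 0.59 ± 0.115 in the last day (adjusted p = 0.000158; -0.20 in log2(TPM + 1)), and fell by 2.69 over the course, the smallest fall of the 4.

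Box H/ACA snoRNPs convert uridines of rRNA to pseudouridine through dyskerin (Dkc1), which also belongs to telomerase, and Nolc1 is their chaperone. Dkc1 (ENSMUSG00000031403.14, GRCm38 chromosome X, 75095854 to 75109777, plus strand) was at 176, 181 and 162 CPM at 0 h, 93.7, 93.9 and 88.9 CPM at 12 h and 75.4, 65.9 and 67.0 CPM at 24 h. It was at 24.6, 24.1 and 31.6 CPM at 36 h, 17.3, 26.7 and 24.9 CPM at 48 h and 30.4, 89.0 and 67.9 CPM at 72 h. All 72 h libraries lay above all 48 h libraries, and replicate 1 lay far below the other two. The last-day change was 1.45 ± 0.24 (log2 ± SE, edgeR adjusted p = 2.69e-05), and 1.78 without replicate 1 of 72 h. In log2(TPM + 1) it was 0.569 (limma, adjusted p = 0.0246, and 0.0547 with all genes above 0 kept). Nolc1 was at 307, 304 and 283 CPM at 0 h, 109, 98.7 and 97.0 CPM at 12 h and 73.0, 58.7 and 59.3 CPM at 24 h. It then was at 15.7, 13.3 and 18.7 CPM at 36 h, 10.9, 11.7 and 7.84 CPM at 48 h and 24.3, 26.1 and 14.8 CPM at 72 h. Its falls at 12 h (-1.55 ± 0.15, adjusted p = 3.08e-08) and 36 h (-2.01 ± 0.17, adjusted p = 8.83e-10) were the largest of the 5 genes, and it rose by 1.09 ± 0.18 in the last day (adjusted p = 2.11e-05) to a range that overlapped 36 h. The last-day change of Nolc1 in log2(TPM + 1) was 0.118 and not called (limma, adjusted p = 0.479). The core proteins Gar1 and Nop10 rose on the TMM scale as well, by 1.00 and 0.78 (0.07 and 0.03 in log2(TPM + 1), not called), while Nhp2 changed by 0.29 ± 0.12 (adjusted p = 0.0522).

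Among the nucleolar proteins with several roles, Npm1 and nucleolin fell in every step to 48 h. Npm1 (chromosome 11, 33152287 to 33163206, minus strand) was at 1018, 1168 and 944 CPM at 0 h, 519.7, 558 and 487 CPM at 12 h and 201, 244 and 233 CPM at 24 h. It was at 73.0, 58.5 and 59.3 CPM at 36 h, 39.2, 46.0 and 37.5 CPM at 48 h and 96.1, 63.5 and 52.6 CPM at 72 h. No 2 neighbouring times overlapped, and at 72 h replicate 1 was the highest library. The change was -1.21 ± 0.15 from 12 to 24 h (log2 ± SE, edgeR adjusted p = 3.27e-06), the largest fall of this group in that step, and 0.79 ± 0.16 in the last day (adjusted p = 0.00025), or 0.502 without replicate 1 of 72 h and -0.00581 in log2(TPM + 1). Ncl was at 1675, 1795 and 1545 CPM at 0 h, 956, 952 and 917 CPM at 12 h and 735, 762 and 758 CPM at 24 h. It was at 363, 322 and 333 CPM at 36 h, 253, 269 and 225 CPM at 48 h and 331, 318 and 239 CPM at 72 h. The 72 h and 48 h libraries overlapped, and the call at 0.25 ± 0.10 (adjusted p = 0.0416) was lost without replicate 1 (0.252) or 3 (0.169) of 48 h and without replicate 1 (0.161) or 2 (0.186) of 72 h. In log2(TPM + 1) Ncl was called lower instead, at -0.44 (limma, adjusted p = 0.0283). The helicase Ddx21 changed by -3.69 and Mybbp1a by -3.98 over the course, and Mybbp1a changed by -0.02 in the last day.

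Gnl3 (nucleostemin), a GTPase of the nucleolus known for its high level in stem and cancer cells, was lowest at 36 h and rose in both later steps in CPM. The gene (ENSMUSG00000042354.7, chromosome 14, 31012433 to 31019152, minus strand) was at 166, 168 and 151 CPM at 0 h, 69.3, 67.2 and 62.9 CPM at 12 h and 49.1, 39.9 and 42.0 CPM at 24 h. It was at 21.8, 23.4 and 24.7 CPM at 36 h, at 54.3, 57.9 and 47.3 CPM at 48 h and at 169, 154 and 110.0 CPM at 72 h. All 3 libraries at 48 h lay above those at 36 h, and those at 72 h lay above 48 h and overlapped 0 h. It was the single gene of the 50 called higher at 48 h than at 36 h, by 1.20 ± 0.13 (log2 ± SE, edgeR adjusted p = 2.82e-07), and it rose by 1.44 ± 0.12 in the last day (adjusted p = 3.51e-09). At 72 h its mean was 89.3% of that at 0 h, a change of -0.16 ± 0.12 that did not pass (adjusted p = 0.191), and that was called at -0.305 without replicate 1 of 72 h (adjusted p = 0.0197). The value turned on the scale: with DESeq2 size factors it was 0.104, as a share of counts -1.95 and in log2(TPM + 1) -3.94, from 359 ± 10.1 TPM at 0 h to 23.5 ± 9.56 TPM at 72 h. Gnl3 made up 1.80 to 2.28% of the summed CPM of the 50 genes at 36 h and 10.1 to 13.1% at 72 h.

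**Figure D3:**
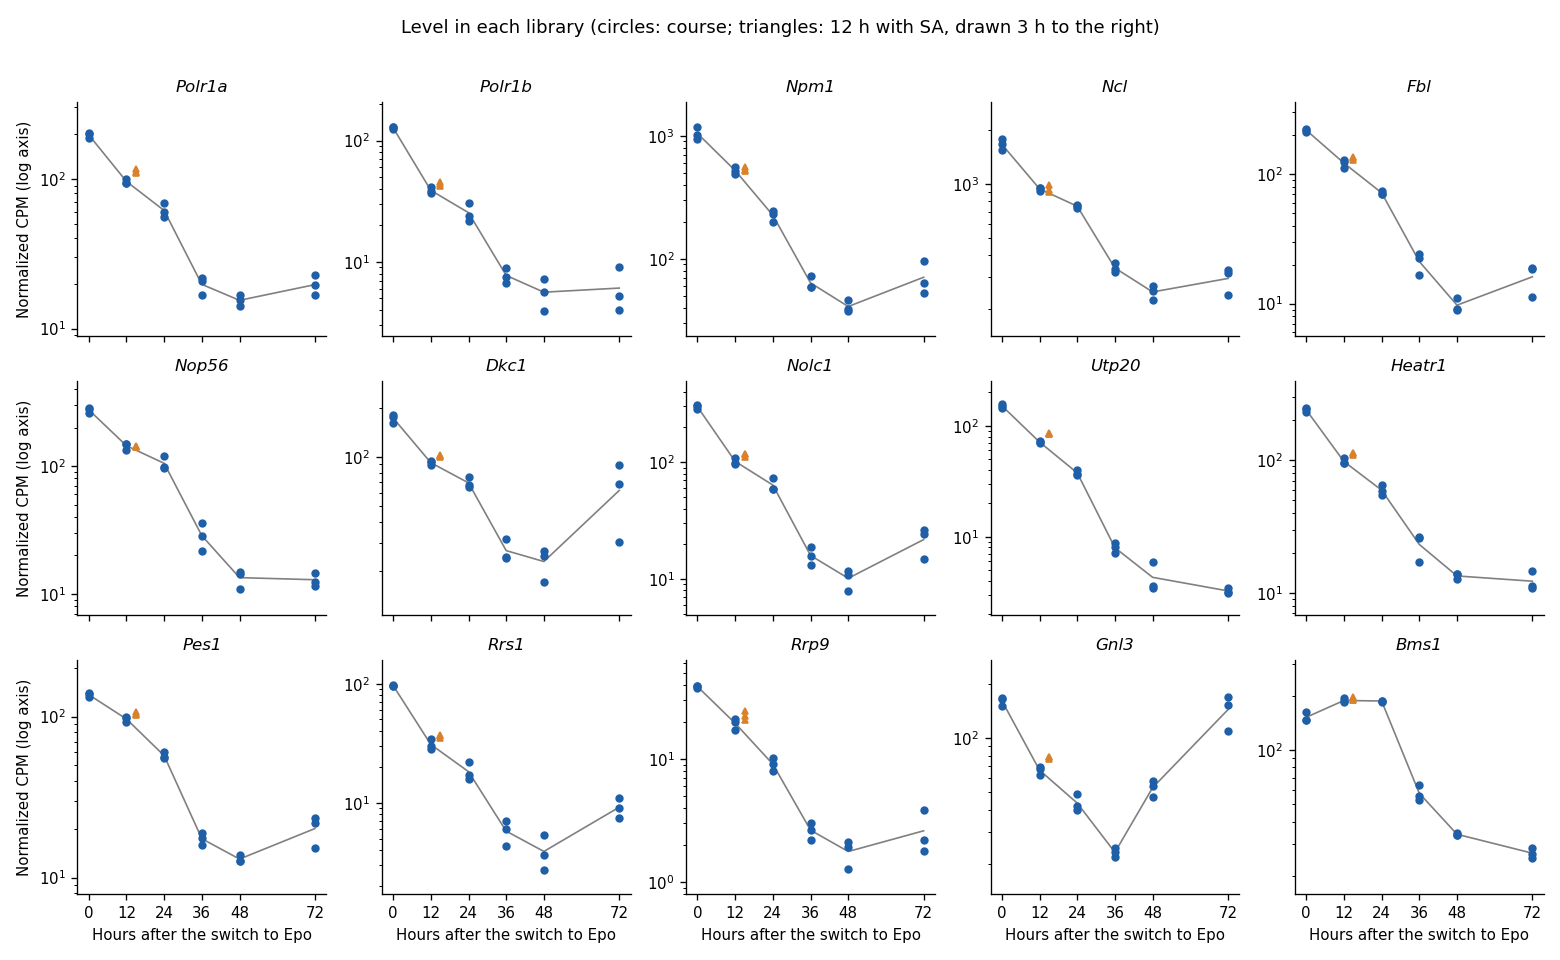
Normalized CPM (log axis, own range per gene) of 15 genes in each of the 21 libraries against hours after the switch; blue circles are the course, orange triangles the 12 h libraries with SA, and grey lines join group means. Groups up to 36 h are well separated for most genes, Gnl3 turns upward from 36 h on, Dkc1 rises at 72 h with replicate 1 at 30.4 CPM, and Bms1 holds its level to 24 h.

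The 17 small-subunit factors, most of which join the processome that folds the start of the precursor RNA, held the largest fall over the course. They also held the genes not called lower at 12 h. Utp20 (chromosome 10, 88746607 to 88826804, minus strand), a large scaffold protein, was at 157, 152 and 146 CPM at 0 h, 73.3, 69.8 and 70.8 CPM at 12 h and 40.1, 36.1 and 36.5 CPM at 24 h. It was at 8.69, 7.08 and 8.11 CPM at 36 h, 3.43, 5.89 and 3.60 CPM at 48 h and 3.17, 3.44 and 3.14 CPM at 72 h. Replicates 1 and 3 of 72 h lay below the 48 h range, and replicate 2 lay at its lower end. Utp20 had the largest change of the 50 genes from 24 to 36 h (-2.25 ± 0.12, log2 ± SE, edgeR adjusted p = 9.9e-13) and over the course (-5.54 ± 0.14, adjusted p = 1.35e-18), and was called lower in the last day (-0.41 ± 0.16, adjusted p = 0.0383). That last call was lost without replicate 2 of 48 h (-0.119) and without replicate 1 (-0.39) or 3 (-0.394) of 72 h. It was also lost with DESeq2 size factors (-0.27), with the compared libraries alone (-0.305) and in log2(TPM + 1) (-0.258). Heatr1, another large scaffold, was at 246, 244 and 230.3 CPM at 0 h, 103, 95.3 and 95.1 CPM at 12 h and 65.5, 54.3 and 58.8 CPM at 24 h. It was at 26.0, 17.1 and 26.4 CPM at 36 h, 12.6, 13.8 and 13.8 CPM at 48 h and 10.8, 14.7 and 11.2 CPM at 72 h. Its 48 h and 72 h libraries overlapped (-0.13 ± 0.14, adjusted p = 0.455).

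Bms1, a GTPase of the processome, ran against the others early on. It was at 147, 163 and 146 CPM at 0 h, 186, 194 and 186 CPM at 12 h and 186, 188 and 189 CPM at 24 h, and then at 55.6, 52.9 and 63.9 CPM at 36 h, 34.7, 33.8 and 33.5 CPM at 48 h and 25.2, 28.5 and 26.3 CPM at 72 h. The 12 h libraries lay above all 0 h libraries, and from 36 h on each time lay below the one before. It was the single gene of the 50 called higher at 12 h (0.31 ± 0.07, log2 ± SE, edgeR adjusted p = 0.00124; 0.242 in log2(TPM + 1), which was not called). The fall came from 24 to 36 h, at -1.71 ± 0.08 (adjusted p = 8.75e-14). Noc4l, which acts with Nop14, was at 51.4, 47.8 and 48.3 CPM at 0 h and 47.7, 42.8 and 43.2 CPM at 12 h, which lay just below all 0 h libraries but did not pass (-0.14 ± 0.14, adjusted p = 0.435). From 24 to 36 h it fell by 2.11 on the log2 scale, the largest fall after that of Utp20. Utp14a, another processome protein, fell by 1.52 at 12 h, the largest fall of this group then, and by 0.54 from 24 to 36 h, the smallest of all 50.

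Wdr43, Wdr3 and Wdr75, WD-repeat proteins of the processome, rose in the last day. Wdr43 was at 13.2, 12.2 and 13.4 CPM at 48 h and 35.0, 32.8 and 38.6 CPM at 72 h, against 172, 178 and 163 CPM at 0 h. Wdr3 was at 10.6, 10.8 and 8.72 CPM at 48 h and 20.3, 27.1 and 28.3 CPM at 72 h, and Wdr75 at 6.56, 6.08 and 4.80 CPM and 10.8, 13.8 and 11.8 CPM. All 3 genes had 72 h libraries above every 48 h library. Wdr43 had the largest rise of the 50, 1.46 ± 0.10 (log2 ± SE, edgeR adjusted p = 1.04e-10), followed in this group by Wdr3 at 1.32 ± 0.13 (adjusted p = 2.17e-08), Utp4 at 1.15 (0.25 and not called in log2(TPM + 1)) and Wdr75 at 1.04 ± 0.12 (adjusted p = 4.31e-07). At 72 h Wdr43 was at 20.7% of its 0 h level, Wdr3 at 27.9% and Wdr75 at 13.5%.

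All 15 large-subunit factors fell at 12 h. Rrp1b (chromosome 17, 32036100 to 32062865, plus strand), a nucleolar partner of a protein phosphatase, had the largest change of the 50 in that step. It was at 78.9, 77.3 and 75.2 CPM at 0 h, 21.3, 18.9 and 17.4 CPM at 12 h, 9.06, 7.26 and 8.57 CPM at 24 h and 2.27, 2.60 and 2.84 CPM at 36 h. It was at 3.18, 3.13 and 4.24 CPM at 48 h and 4.12, 2.66 and 7.74 CPM at 72 h. The first 4 times did not overlap, with changes of -2.01 ± 0.17 (log2 ± SE, edgeR adjusted p = 2.92e-09), -1.21 ± 0.17 (adjusted p = 1.3e-05) and -1.70 ± 0.23 (adjusted p = 1.48e-06). Rrs1, which brings the 5S particle to the large subunit, was at 96.2, 97.9 and 95.4 CPM at 0 h, 34.1, 29.9 and 28.5 CPM at 12 h and 21.9, 17.0 and 15.8 CPM at 24 h. It was at 7.00, 4.28 and 6.02 CPM at 36 h, 3.64, 5.32 and 2.72 CPM at 48 h and 9.0, 11.0 and 7.48 CPM at 72 h. Its 72 h libraries lay above all libraries of 36 h and 48 h. The change of -1.64 ± 0.15 at 12 h (adjusted p = 1.08e-08) was followed by 1.22 ± 0.21 in the last day (adjusted p = 3.91e-05). The last-day change of Rrs1 in log2(TPM + 1) was 0.204 and not called (limma, adjusted p = 0.176). Rrs1 was at 0.560 ± 0.0863 TPM at 48 h and 0.799 ± 0.155 TPM at 72 h (mean ± SD, n = 3). Both means lay below the 1 that was added, which shrinks the change. From 36 to 48 h the change of Rrs1 was -0.53 ± 0.22 (edgeR adjusted p = 0.0534), called with the replicate number as a block (adjusted p = 0.0415). It was also called without replicate 2 of 36 h (-0.737) and without replicate 2 of 48 h (-0.816).

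Pes1, which with Bop1 and Wdr12 forms the PeBoW complex, was at 140, 139 and 133 CPM at 0 h, 98.8, 98.5 and 92.7 CPM at 12 h and 60.2, 55.2 and 56.2 CPM at 24 h. It was at 18.8, 16.0 and 17.6 CPM at 36 h, 12.6, 13.8 and 12.7 CPM at 48 h and 21.8, 23.3 and 15.4 CPM at 72 h. It fell less than most at 12 h (-0.50 ± 0.10, log2 ± SE, edgeR adjusted p = 0.000171) and by -1.72 ± 0.11 from 24 to 36 h (adjusted p = 1.16e-11). In the last day it rose by 0.63 ± 0.11 (adjusted p = 6.9e-05; -0.115 in log2(TPM + 1)), with no overlap of the groups in CPM. Bop1 rose by 0.65 (-0.03 in log2(TPM + 1)) and Wdr12 by 0.30 then, the latter called lower in log2(TPM + 1). The helicase Ddx18 went the other way: it was at 9.12, 9.21 and 8.88 CPM at 48 h and 7.16, 7.20 and 6.41 CPM at 72 h, a change of -0.39 ± 0.12 (adjusted p = 0.00616; -0.254 and not called with DESeq2 size factors). Urb2 changed by 0.006241 and Mrto4 by -0.003047 in the last day.

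The size of the return at 72 h depended on the scale. On the TMM scale 29 of the 50 genes rose and 3 (Utp20, Ddx18 and Bms1) fell. With the 6 libraries compared alone, none was called lower. In log2(TPM + 1), tested with limma, 5 rose and 7 fell, where 4.59% of the 9525 genes tested on that scale were called higher and 59.3% lower. The median of the 50 was -0.11 against -0.45 over those genes. Adding 1 shrinks changes below 1 TPM, where Rrs1 (0.560 TPM), Gar1 (0.397 TPM) and Utp20 (0.321 TPM) stood at 48 h. With 0.1 added in place of 1, 6 rose and 18 fell, with a median of -0.20 against -0.79. As plain shares of the library 23 rose and 3 fell, where 17.3% were called higher and 41.2% lower, with a median of 0.29 against -0.26. The distance of the 50 genes from the middle of all genes was 0.56 on the TMM scale, 0.34 in log2(TPM + 1), 0.59 in log2(TPM + 0.1) and 0.55 for shares. It was -0.05 in log2(TPM + 1) when every gene above 0 was kept. On the first 4 of these scales 5 genes were called higher (Dkc1, Gnl3, Wdr3, Wdr43 and Wdr75) and 2 lower (Bms1 and Ddx18).

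In TPM, Gnl3 was at 12.8, 12.5 and 16.7 at 48 h and 34.4, 16.4 and 19.8 at 72 h, and Dkc1 at 2.09, 3.53 and 4.17 and at 3.10, 5.80 and 7.48. Wdr3 was at 1.14, 0.909 and 1.14 TPM at 48 h and 1.77, 1.22 and 2.42 TPM at 72 h, and Wdr75 at 0.981, 0.873 and 0.948 TPM and at 1.63, 1.14 and 1.84 TPM. The groups of Wdr3 and Wdr75 did not overlap in TPM, and those of Gnl3 and Dkc1 did. In CPM, 26 of the 50 genes had every 72 h library above every 48 h library and 2 had every library below, where 23.0% and 33.0% of all genes did. In TPM 2 genes had every 72 h library above and 11 every one below, where 5.02% and 47.2% of all genes did, and as count shares 13 and 5, where 15.4% and 38.4% did.

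**Figure D4:**
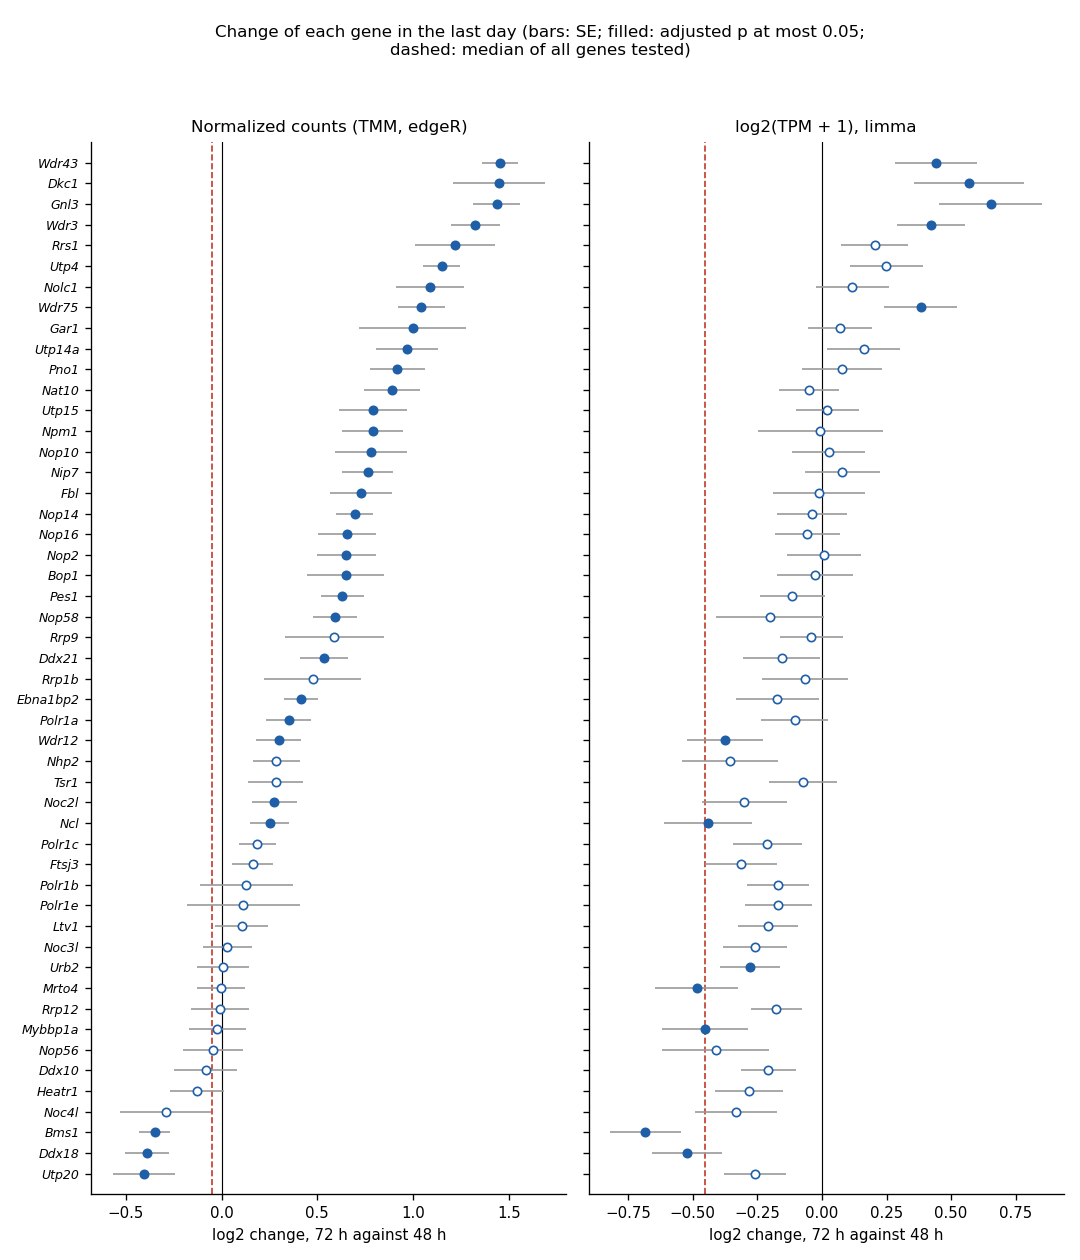
Points are the log2 change from 48 to 72 h of each of the 50 genes, with SE as bars, filled where the adjusted p was at most 0.05. The TMM scale is on the left and log2(TPM + 1) on the right, in the order of the left panel. The dashed line is the median of all genes tested on that scale (-0.05 over 12360 genes and -0.45 over 9525). On the left 29 filled points lie above 0 and 3 below, on the right 5 above and 7 below, and on both sides most genes lie to the right of the dashed line.

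Against 36 h the levels at 72 h were mixed: 17 genes were higher and 17 lower on the TMM scale, with a median of 0.07 against -0.13, where 31.2% of all genes were called higher and 41.2% lower. Gnl3 (2.63 ± 0.13), Wdr43 (1.39 ± 0.10; -0.0302 in log2(TPM + 1)) and Dkc1 (1.23 ± 0.24; -0.15 in log2(TPM + 1)) were higher, and Ddx18 (-1.31 ± 0.11), Utp20 (-1.28 ± 0.15) and Nop56 (-1.13 ± 0.15) were lower (log2 ± SE). For Dkc1, replicate 1 of 72 h, at 30.4 CPM, lay within the 36 h range of 24.1 to 31.6 CPM. In log2(TPM + 1) 1 gene was higher and 41 lower, where 4.97% and 78.9% of genes were. With DESeq2 size factors 27 were higher and 10 lower, with a median of 0.33 against 0.13 over all genes. Under the DESeq2 Wald test, which gave the same counts, the medians were 0.325 and 0.309. This comparison and those with 48 h and 0 h share the 72 h libraries. By role, on the TMM scale, the last day brought rises in 1 of 4 polymerase subunits, 2 of 4 box C/D and 4 of 5 box H/ACA proteins. It also brought rises in 4 of 5 nucleolar proteins, 9 of 17 small-subunit and 9 of 15 large-subunit factors. In that step 24.7% of all genes were called higher and 34.5% lower, and the polymerase count was near the first share. Of the small-subunit factors 2 were called lower then, and of the large-subunit factors 1.

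Several genes overlap others in the annotation, and the strand setting of the counting is not given in the sources used here. In 20 of the 50 genes exons overlap exons of a gene on the opposite strand, so part of their counts is uncertain. For Dkc1 the overlap is 45 bases (1.09% of its exon bases) with Mpp1, which codes for an erythroid membrane protein, and for Gnl3 it is 15 bases (0.246%) with Pbrm1. Mpp1 went from 685, 661 and 698 CPM at 48 h to 196, 355 and 341 CPM at 72 h. Replicate 1 was the lowest library at 72 h for Mpp1, as it was for Dkc1. Pbrm1 was at 483, 543 and 616 CPM at 48 h and 361, 609 and 637 CPM at 72 h. Wdr3 overlaps Spag17 by 820 bases, and Spag17 was at most 0.0879 CPM on average in any group. Wdr3 also overlaps Gdap2 by 27 bases (0.517%), which went from 28.9 CPM on average at 48 h to 37.3 CPM at 72 h. Parp3, which overlaps Rrp9 by 20 bases (0.682%), went from 6.64 to 24.4 CPM in that step. The part of these overlaps in the changes of the 50 genes was not tested. Tsr1 shares 32.3% of its exon bases with Srr, the largest such share of a gene named here, and Mrto4 has 2 named pseudogenes. In the GENCODE M21 annotation 8 of the 50 genes (16.0%) are tagged as hosts of a non-coding RNA such as a snoRNA (Nop56, Nop58, Dkc1, Ncl, Gnl3, Wdr43, Tsr1 and Urb2), against 8.49% of genes tested. Exons of Nop56, Nop58, Ncl and Gnl3 also overlap exons of genes on the same strand, among them Snord57 in Nop56 and Snord19 in Gnl3. The median change of the 8 host genes was -1.02 at 12 h and 0.44 in the last day, against -1.02 and 0.51 for the other 42.

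With SA for 12 h, levels were compared with those at 12 h without it. No gene of the 50 was called in either direction by edgeR (0.38% of all genes were, 0.364% lower and 0.0162% higher), 9 were higher and none lower at an unadjusted p of at most 0.05, where 2.1% and 4.05% of all genes were, and DESeq2 called 2 higher, where 0.164% were. Their median log2 change was 0.17, against 0.02 over all genes. Of the 50 values 47 were above 0, as were 6894 of the 12360 over all genes. The summed level was 5042, 4911 and 4829 CPM with SA and 4744, 4655 and 4414 CPM without it. The lowest library with SA lay above the highest without. In 36 of the 50 genes every SA library lay above every 12 h library and in none below, where 14.4% of all genes lay above and 9.86% below. The largest change was that of Urb2, at 38.1, 34.7 and 32.4 CPM with SA and 28.9, 28.3 and 28.0 CPM without it (0.31 ± 0.12, log2 ± SE, edgeR adjusted p = 0.65). Utp20 was at 83.6, 85.6 and 83.7 CPM against 73.3, 69.8 and 70.8 CPM (0.24 ± 0.10, adjusted p = 0.718), and Gnl3 at 79.1, 79.2 and 76.5 CPM against 69.3, 67.2 and 62.9 CPM (0.24 ± 0.12, adjusted p = 0.839). With the 6 libraries compared alone, 10 genes were called higher, where 0.801% of all genes were.

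Of 137 other tested genes of the pathway, from a list that leaves out the 50, 101 fell and 6 rose at 12 h (median log2 change -0.65), and 88 fell and 3 rose from 12 to 24 h. From 24 to 36 h 109 fell and 13 rose, and from 36 to 48 h 85 fell and 9 rose. In the last day 51 rose and 36 fell, with a median of 0.16. Of all genes tested 27.6, 22.0, 39.0, 29.7 and 34.5% were called lower in the 5 steps, in order. Called higher were 25.3% at 12 h, 19.1% at 24 h, 20.0% at 48 h and 24.7% in the last day. At 36 h 4219 of 12360 genes were called higher. The largest falls at 12 h were those of Taf1d, of the polymerase I initiation complex (-1.69 ± 0.10), Urb1 (-1.59 ± 0.11) and Nol9 (-1.47 ± 0.13), large-subunit factors. The kinase Riok3 rose instead, from 50.8 ± 1.92 CPM at 0 h to 1226 ± 338 CPM at 72 h (± SD, n = 3), a log2 change of 4.59 ± 0.16. Tcof1, a nucleolar cofactor of polymerase I transcription, changed by -5.64 ± 0.17 over the course. Polr2e, which all 3 nuclear polymerases share, rose by 2.07 ± 0.15 in the last day, whereas Exosc9, of the RNA exosome, changed by -1.94 ± 0.12. Of 13 genes of the exosome and its cofactors 7 fell and 2 rose then.

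The proteins of the finished ribosome were followed beside the 50 genes. Of 79 cytosolic ribosomal protein genes 1 rose and 1 fell at 12 h (median -0.02), 33 fell and 8 rose from 24 to 36 h (median -0.25) and 62 fell and 2 rose from 36 to 48 h. In the last day 66 fell and 2 rose, with a median of -0.82, where the 50 genes had 0.51. Of 77 mitochondrial ribosomal protein genes 31 fell and 10 rose at 12 h, 69 fell and 3 rose from 24 to 36 h and 40 fell and 14 rose in the last day (median -0.35). Of all genes tested, 27.6% were called lower at 12 h, 39.0% at 36 h, 29.7% at 48 h and 34.5% in the last day. Called higher were 25.3% at 12 h, 20.0% at 48 h and 24.7% in the last day, and 4219 of 12360 genes at 36 h. The difference between the lists was not tested.

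**Figure D5:**
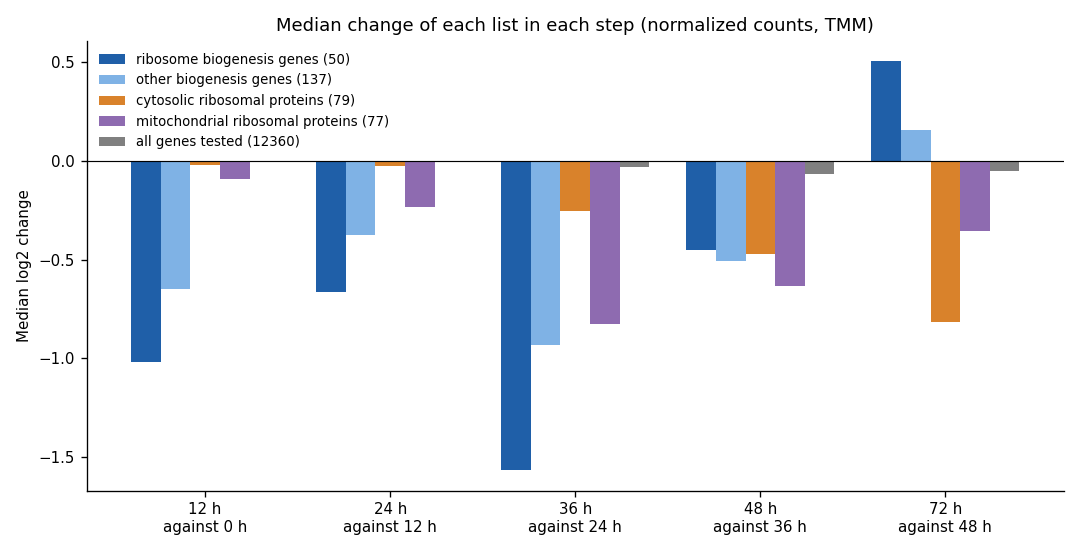
Median log2 change on the TMM scale (bars, from 0) of the 50 genes, 137 other genes of the pathway, 79 cytosolic and 77 mitochondrial ribosomal protein genes and all 12360 genes tested, in each of the 5 steps. The 50 genes have the lowest median in the first 3 steps (-1.02, -0.66 and -1.57) and the highest in the last (0.51), where cytosolic ribosomal proteins have -0.82.

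Myc, the activator named above, was at 185, 177 and 191 CPM at 0 h, 51.8, 39.8 and 56.1 CPM at 12 h and 40.1, 30.6 and 36.0 CPM at 24 h. It was lowest at 36 h, at 17.3, 19.5 and 18.6 CPM, then at 33.9, 44.2 and 25.4 CPM at 48 h and at 22.8, 45.1 and 43.2 CPM at 72 h. No library at 36 h reached those of any other time, and the 48 h and 72 h groups overlapped. Myc fell by 1.90 at 12 h and rose by 0.90 ± 0.21 from 36 to 48 h (log2 ± SE, edgeR adjusted p = 0.00129). In the last day its change was 0.10 ± 0.20 (adjusted p = 0.705). At 72 h against 36 h the change of Myc was 1.00 ± 0.21 (adjusted p = 0.000258). Whether the level of Myc bears on the 50 genes was not tested.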

How the data were processed

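RNA of 21 libraries (7 groups of 3) was measured by strand-specific polyA RNA-seq. The authors deposited estimated counts per gene and TPM values per gene. STAR 2.5.3a, DESeq2 and kallisto are the tools named, per the submitters' processing notes, and mm10 and GRCm38.p5 the builds; which made which table is not given in the sources used here. Of the deposited count values, 78.5% were whole (tolerance 1e-06).

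Estimated counts were rounded, and 12360 of 22483 genes passed edgeR's filterByExpr (minimum count 10). All 21 libraries entered 1 edgeR 4.0.16 quasi-likelihood fit (R 4.3.3) with TMM scaling and group means. Tests were 2-sided, with Benjamini-Hochberg adjustment over all genes tested, at a threshold of 0.05; the steps were tested on simulated data. Totals were 16.7 to 39.3 M counts, and the biological coefficient of variation was 11.6%. CPM values are TMM-normalized. The TPM were tested with limma 3.58.1 after adding 1, over genes with a mean of at least 1 TPM.

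The 50 genes and all lists were chosen with earlier results of these data known. Per-library values are given for a fixed panel of 14 genes and for genes with the largest changes or against the direction of most; Wdr3, Wdr75 and Ddx18 were added after their values were seen. Annotation came from GENCODE M21 (50 of 50 genes matched), promoter windows from RefSeq.

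Same-numbered replicates deviated together (correlations over 6180 genes above 0.1 in each pair) in all comparisons except 36 h against 24 h (0.00218 to 0.337) and 72 h against 0 h (-0.0738 to 0.0435), so a replicate block was among the alternatives, with DESeq2 1.42.0, other scalings, filters and pseudocounts, and each replicate left out.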

Additional observations from a re-analysis of the deposited data

How the results depend on the processing

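The counts of genes called lower at 12 h, 24 h, 36 h and over the whole course stayed within 1.5 times under every alternative run. With a replicate block, for the pairing of same-numbered libraries, 48, 45, 50, 29 and 3 of the 50 genes were lower and 1, 0, 0, 1 and 28 higher in the 5 steps, and 111 of 112 single-gene calls did not change; the exception was Rrs1 from 36 to 48 h. Leaving out each replicate gave 48 to 48 lower and 1 to 1 higher at 12 h, 43 to 47 lower at 24 h, 50 lower at 36 h, 25 to 35 lower and 1 to 2 higher at 48 h, and 2 to 3 lower and 24 to 29 higher at 72 h against 48 h. It gave 12 to 19 lower and 13 to 18 higher at 72 h against 36 h, 49 to 50 lower at 72 h against 0 h, and 0 with SA. In log2(TPM + 1), in log2(TPM + 0.1) and in log2(TPM + 1) with all genes above 0, in that order, the count higher at 12 h was 0, 0 and 0, and that lower at 48 h was 46, 46 and 44, with 0 higher at 48 h on the last. The median of the 50 genes from 36 to 48 h was then -0.636, -1.03 and -0.636, against -0.472, -0.722 and -0.0974 over all genes kept. In the same order 72 h against 48 h had 7, 18 and 5 lower and 5, 6 and 4 higher, and 72 h against 36 h had 41, 42 and 41 lower and 1, 1 and 1 higher. DESeq2 size factors and the DESeq2 Wald test each gave 3 higher at 48 h, 1 lower at 72 h against 48 h, and 10 lower and 27 higher at 72 h against 36 h. In the last of these comparisons the median of the 50 genes was 0.333 and 0.325, against 0.128 and 0.309 over all genes. The compared libraries alone gave 0 lower at 72 h against 48 h and 10 lower at 72 h against 36 h. With SA they gave 10 higher, and the Wald test gave 2. Without scaling beyond library totals, an alternative chosen after seeing the data, 72 h against 36 h had 27 lower and 7 higher. The median of the 50 genes was then -0.449, against -0.651 over all genes. On the 3 TPM settings, in the order above, the change from 48 to 72 h turned to -0.105, -0.199 and -0.105 for Polr1a, -0.00581, -0.0153 and -0.00581 for Npm1, -0.44, -0.492 and -0.44 for Ncl, -0.0123, -0.028 and -0.0123 for Fbl, and -0.115, -0.188 and -0.115 for Pes1. Polr1b turned to -0.516 in log2(TPM + 0.1), and Wdr43 at 72 h against 36 h to -0.0302, -0.0537 and -0.0302. Of 1792 single-gene alternatives 1684 kept the call or its absence, 40 lost the call, 49 gained it and 19 turned with a call in either setting. The 1684 include changes of sign where neither value was called. Polr1b in the last day was one, at 0.129 on the TMM scale and -0.172 in log2(TPM + 1). The cause was not tested. Late values rest on fewer counts at library totals like those at 0 h: the median count of the 50 genes was 156.4 at 48 h and 198 at 72 h, against 4944.5 at 0 h.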
